A study of Mus musculus with 16 samples.

Results

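The regulators of apoptosis described here are 10 genes of the BCL2 family, Bcl2, Bcl2l1, Mcl1, Bcl2a1b, Bax, Bak1, Bbc3, Pmaip1, Bcl2l11 and Bid, chosen by name from the 55492 genes of the expression table. All 10 had a mean of at least 10 normalized counts and were tested among 20576 genes. RNA was sequenced from the left ventricles of 16 male C57BL/6 mice aged 8 to 12 weeks. PKM2fl/fl mice carried the floxed allele without Cre, and PKM2-/- mice lacked exon 10 of Pkm, the exon of the M2 isoform of pyruvate kinase, in every cell. The deletion was made in the germline with Cre under a CMV promoter, and the Cre allele was then bred out. Each genotype had 2 untreated hearts (baseline), 3 hearts taken 3 days after sham surgery and 3 taken 3 days after permanent ligation of the left anterior descending artery (MI). Whole left ventricular tissue was used, so each library mixes muscle, stromal, vascular and immune cells, and a change in the number of cells of a type cannot be told apart from a change in RNA per cell.

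The BCL2 family sets whether a mitochondrion releases cytochrome c. The effectors BAX and BAK form pores in the outer membrane, the anti-apoptotic members BCL2, BCL-XL (Bcl2l1), MCL1 and A1 (Bcl2a1b) bind and restrain them, and the BH3-only members PUMA (Bbc3), NOXA (Pmaip1), BIM (Bcl2l11) and BID carry stress signals that neutralize the anti-apoptotic members or engage the effectors. In the heart, cardiomyocytes hold many mitochondria and divide little after birth, and MCL1 and BCL-XL are known as survival factors of adult muscle. A1 is best known from blood cells, including neutrophils and macrophages.

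In the mm10 assembly (GRCm38.p6), the anti-apoptotic genes lie at chr1:106538176-106714290 (Bcl2), chr2:152758732-152833803 (Bcl2l1), chr3:95656944-95663179 (Mcl1) and chr9:89199273-89207838 (Bcl2a1b). The effectors lie at chr7:45461695-45466903 (Bax) and chr17:27019812-27028627 (Bak1). The BH3-only genes other than Pmaip1 lie at chr7:16308398-16318334 (Bbc3), chr2:128126038-128162547 (Bcl2l11) and chr6:120893119-120917062 (Bid). Bcl2, Bcl2l1, Bax, Bak1 and Bid are read from the minus strand, and Mcl1, Bcl2a1b, Bbc3 and Bcl2l11 from the plus strand.

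Bcl2a1b belongs to a cluster of nearly identical A1 genes on the same chromosome, which decides how its counts can be read. The coding sequences of Bcl2a1a, Bcl2a1b and Bcl2a1d in the GENCODE M39 transcripts were each 516 bases long without the stop codon and differed at 12 positions in all. Bcl2a1b differed from Bcl2a1d at 6 positions (98.8% identical) and from Bcl2a1a at 11 (97.9%), with an identical run of 217 bases in both pairs. The first 60 coding bases are shown because they hold 6 of the 12 variable positions, which are printed in capitals:
Bcl2a1a: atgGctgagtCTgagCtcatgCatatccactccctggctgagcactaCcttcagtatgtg
Bcl2a1b: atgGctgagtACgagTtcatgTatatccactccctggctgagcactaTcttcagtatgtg
Bcl2a1d: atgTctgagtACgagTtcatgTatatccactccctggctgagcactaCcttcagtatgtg
Reads from the coding sequence that cover none of the variable positions cannot be assigned to 1 of the 3 genes. The untranslated parts of the transcripts were not compared. The split of A1 counts between the genes is therefore uncertain, and the summed A1 count is given beside Bcl2a1b.

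The 250 bases before the start of transcription were searched on both strands for 6 short motifs, in 14 RefSeq promoter windows of 9 members (GRCm38.p6) and in all 32851 windows. The AP-1 motif TGANTCA was found in 6.75% of all windows and, among the members, in that of Bcl2a1b. The FOXO motif TGTTTAC was found in 3.17% of all windows and in a window of Bcl2l11 and of Bbc3. The kB motif, GGGA and TTCC with 2 free bases between (1.21% of all windows), the STAT motif TTCNNNGAA (7.02%), the CRE motif TGACGTCA (1.55%) and a p53 core in the form of CATG repeated after 6 free bases (0.49%) were found in 0 windows of members. Other forms of these motifs and sequence outside the 250 bases were not searched. The 0 windows therefore do not show that the members lack p53 sites. The A1 promoters are shown because all 3 carry the AP-1 letters in the same surroundings, and that of Bcl2l11 because it carries the FOXO letters. Each stretch has 120 bases, and the motif is in capitals:
Bcl2a1b, chr9:89199059-89199178, plus strand: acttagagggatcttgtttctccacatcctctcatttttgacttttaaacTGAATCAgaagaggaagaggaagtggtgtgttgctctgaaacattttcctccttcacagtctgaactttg
Bcl2a1a, chr9:88956750-88956869, plus strand: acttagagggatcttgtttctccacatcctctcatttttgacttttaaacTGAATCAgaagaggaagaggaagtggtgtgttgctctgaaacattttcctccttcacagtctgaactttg
Bcl2a1d, chr9:88731895-88732014, minus strand: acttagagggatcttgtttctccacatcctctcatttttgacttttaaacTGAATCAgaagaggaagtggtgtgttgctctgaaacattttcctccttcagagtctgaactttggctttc
Bcl2l11, chr2:128125788-128125907, plus strand: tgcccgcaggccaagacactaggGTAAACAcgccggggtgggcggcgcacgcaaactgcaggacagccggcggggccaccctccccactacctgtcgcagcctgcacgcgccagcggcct
The letters are described as sequence only, and binding was not measured.

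The libraries held 20623769 to 71855101 reads on genes, of which 15.8% to 46.3% fell on loci related to rRNA. These loci include the mitochondrial rRNA genes mt-Rnr1 and mt-Rnr2 themselves, which held 1967957 and 4367069 of 37368106 reads in PKM2fl/fl baseline replicate 1. Scaling with these loci removed therefore also leaves out mitochondrial rRNA. Pkm, counted over both isoforms, had 9108 and 9602 normalized counts in the PKM2fl/fl baseline hearts and 11980 and 12980 in the PKM2-/- baseline hearts, and this sum does not check the loss of exon 10. It was 7779 to 9444 in PKM2fl/fl and 11710 to 14240 in PKM2-/- sham hearts, and 9576 to 12080 and 10120 to 16110 after MI, with no limma adjusted p under 0.05 between genotypes. Markers of cardiomyocytes were present in every library, and 7 of 8 in PKM2fl/fl hearts and 8 of 8 in PKM2-/- hearts fell after MI. Their summed level was 1262000 to 1420000 normalized counts in PKM2fl/fl sham hearts and 1112000 to 1393000 in PKM2-/- sham hearts. After MI it was 273500, 570800 and 582100 in PKM2fl/fl hearts and 257200 to 341000 in PKM2-/- hearts. The lowest of these PKM2fl/fl hearts, replicate 3, also had the highest macrophage and monocyte sum of all libraries, 40700 against 23050 and 27520 in the other PKM2fl/fl hearts after MI. All 8 macrophage and monocyte markers and all 6 cycling markers rose after MI in both genotypes. Neutrophil markers summed to 1499 to 2969 in PKM2fl/fl and 4471 to 5717 in PKM2-/- hearts after MI, and none of the 7 that were tested passed the limma threshold between genotypes. After MI, 3 of 7 neutrophil markers rose in each genotype, as did 4 of 6 fibroblast markers with 1 lower, and 2 of 6 endothelial markers with 0 lower in PKM2fl/fl and 1 lower in PKM2-/- hearts. Of 3 tested lymphocyte markers, 2 rose in PKM2fl/fl and 1 in PKM2-/- hearts. The part of these shifts in the results on BCL2 family genes was not tested.

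**Figure D1:**
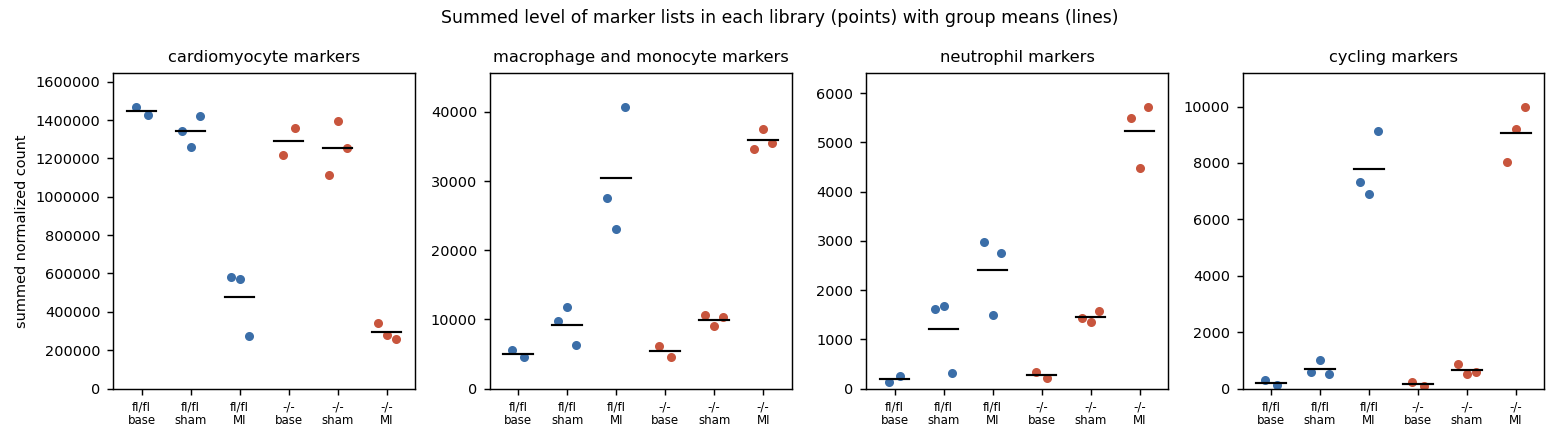
Summed normalized counts of 4 marker lists (y axis) in the 6 groups (x axis), with each point a library and each line a group mean. Cardiomyocyte sums after MI lie at 582100 or less against 1112000 or more after sham surgery, while the macrophage, neutrophil and cycling sums have their highest group means after MI, and 1 PKM2fl/fl heart after MI lies among the PKM2-/- hearts for cardiomyocyte markers.

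Normalized counts per kilobase of transcript were used to set the members beside each other. In PKM2fl/fl sham hearts, Mcl1 had the highest level, 1120 ± 98.5 per kilobase (SD, n = 3), followed by Bcl2l1 at 912 ± 130 per kilobase. These anti-apoptotic genes overlapped in their ranges (1020 to 1210 and 779 to 1040 per kilobase) and stood above the effectors Bax, at 237 ± 2.88, and Bak1, at 200 ± 18.7 per kilobase. Bcl2, at 99.9 ± 4.15 per kilobase, and Bcl2l11, at 95 ± 6.74, overlapped each other, and Bid lay below both at 76.4 ± 0.954 per kilobase. Bcl2a1b (13.1 to 74.6 per kilobase) spanned the range of Bbc3 (29.8 to 36.3), and Pmaip1 was lowest, at 5.83 ± 3.08 per kilobase. In PKM2-/- hearts after MI the order by mean was Mcl1 (1410 per kilobase), Bcl2l1 (1190), Bax (563), Bcl2a1b (478), Bak1 (345), Bcl2 (140), Bid (138), Bcl2l11 (134), Pmaip1 (36.7) and Bbc3 (32.5). There, Mcl1 and Bcl2l1 overlapped in part, as did Bcl2, Bid and Bcl2l11, while Bax, Bcl2a1b and Bak1 did not overlap each other.

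**Figure D2:**
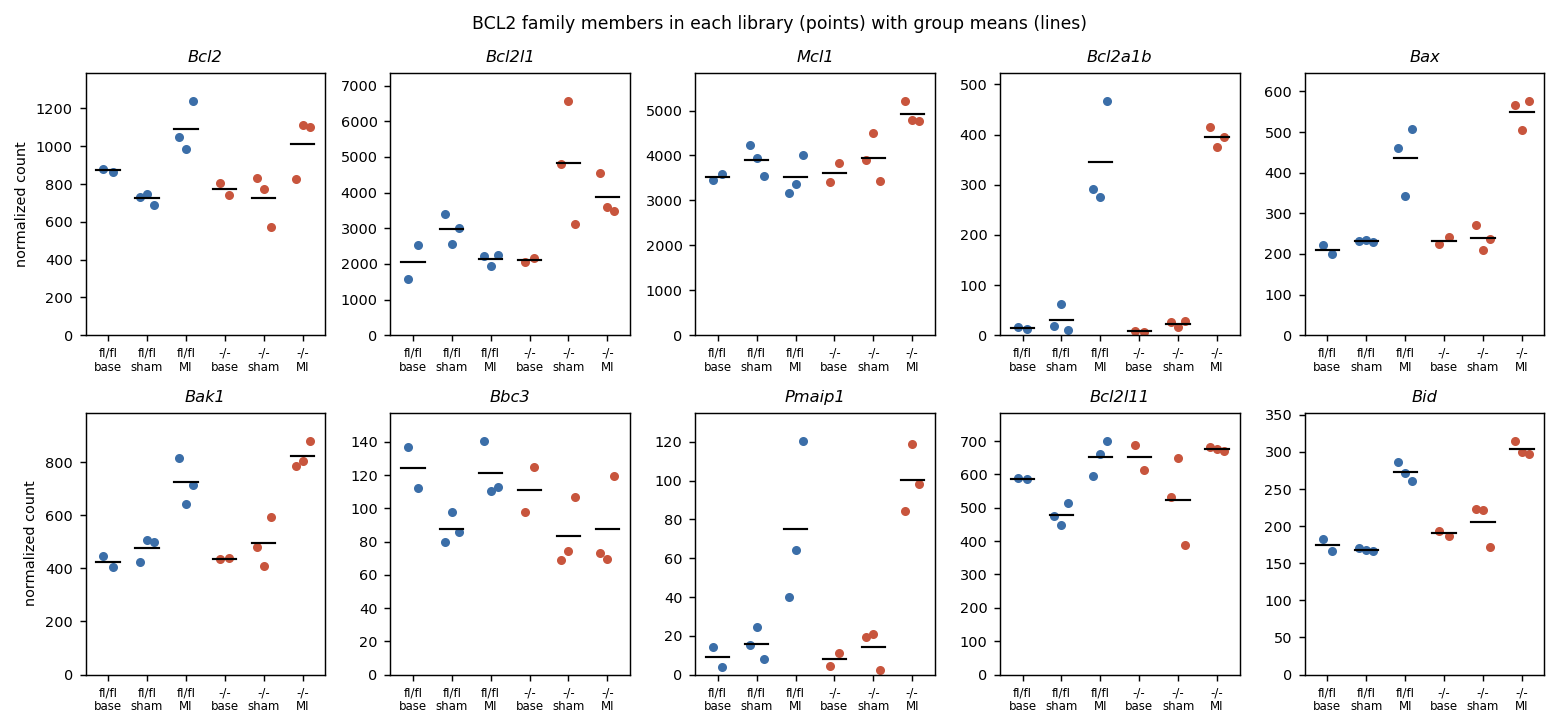
Normalized counts (y axis, from 0, a separate scale for each gene) of the 10 members in the 6 groups (x axis: fl/fl is PKM2fl/fl, -/- is PKM2-/-, base is baseline), with each point a library and each line a group mean. The MI hearts stand above all sham hearts of their genotype, in both genotypes, for Bcl2a1b, Bax, Bak1, Bid, Pmaip1 and Bcl2l11, and Bcl2l1 is higher in every PKM2-/- than in every PKM2fl/fl heart after MI.

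MI against sham surgery asks how the family differed 3 days after infarction. In PKM2fl/fl hearts, 7 of the 10 members rose and 0 fell (adjusted p under 0.05 in limma's test), where 24.8% of all genes tested rose. In PKM2-/- hearts, 8 of 10 rose and 0 fell, where 28.7% of all genes rose. Both effectors, the BH3-only genes Bid, Bcl2l11 and Pmaip1, and the anti-apoptotic genes Bcl2 and Bcl2a1b rose in both genotypes. At a 2-fold change or more, 2 members rose in PKM2fl/fl hearts (12.4% of all genes) and 3 in PKM2-/- hearts (14.5%). The median log2 difference of the members was 0.59 in PKM2fl/fl and 0.53 in PKM2-/- hearts, where that of all genes tested was -0.0025 and 0.011.

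Of the effectors, Bax had 231, 234 and 228 normalized counts in the PKM2fl/fl sham hearts and 461, 342 and 508 after MI. The PKM2-/- hearts had 270, 209 and 236 after sham surgery and 567, 506 and 576 after MI. Every MI heart was above every sham heart in both genotypes. The log2 difference of Bax was 0.90 in PKM2fl/fl (SE 0.142, limma adjusted p = 0.000102) and 1.21 in PKM2-/- hearts (SE 0.142, limma adjusted p = 4.91e-06). Bak1, whose product shares the pore-forming role, had 425, 506 and 499 normalized counts after sham surgery and 816, 644 and 716 after MI in PKM2fl/fl hearts. It had 481, 410 and 596 after sham surgery and 785, 805 and 882 after MI in PKM2-/- hearts, again without overlap. The log2 difference of Bak1 was 0.60 (SE 0.132, limma adjusted p = 0.00145) and 0.75 (SE 0.132, limma adjusted p = 0.000191). With libraries scaled to total reads, the PKM2fl/fl calls of both effectors were lost (0.72, limma adjusted p = 0.066 for Bax and 0.43, limma adjusted p = 0.287 for Bak1), and the PKM2-/- calls were kept. When loci related to rRNA were removed before that scaling, the calls of both effectors were kept in both genotypes.

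Of the BH3-only genes, Bid, Pmaip1 and Bcl2l11 passed the threshold in both genotypes, and Bbc3 passed in neither. Bid, which links death receptors to mitochondria, had 170, 168 and 166 normalized counts after sham surgery and 286, 271 and 261 after MI in PKM2fl/fl hearts. The PKM2-/- values of Bid were 224, 222 and 172 after sham surgery and 315, 300 and 297 after MI, so the groups did not overlap. Its log2 difference was 0.69 in PKM2fl/fl (SE 0.122, limma adjusted p = 0.000242) and 0.57 in PKM2-/- hearts (SE 0.122, limma adjusted p = 0.000887). Pmaip1 (chr18:66458604-66465558), whose product NOXA binds MCL1, had low counts throughout, with 15.3, 24.6 and 7.84 normalized counts after sham surgery and 40.2, 64.3 and 121 after MI in PKM2fl/fl hearts. The PKM2-/- values of Pmaip1 were 19.3, 20.9 and 2.16 after sham surgery and 84.3, 119 and 98.1 after MI. All MI hearts were above all sham hearts of their genotype, and the sham hearts spread widely at these low counts. The log2 difference of Pmaip1 was 2.16 (SE 0.687, limma adjusted p = 0.0162) and 3.17 (SE 0.687, limma adjusted p = 0.00106). Bcl2l11, encoding BIM, had 475, 448 and 515 normalized counts after sham surgery and 595, 660 and 702 after MI in PKM2fl/fl hearts. The PKM2-/- hearts had 532, 649 and 389 after sham surgery and 683, 676 and 669 after MI, with the MI hearts close together and just above the highest sham heart. The log2 difference of Bcl2l11 was 0.44 in PKM2fl/fl (SE 0.143, limma adjusted p = 0.0176) and 0.40 in PKM2-/- hearts (SE 0.143, limma adjusted p = 0.0262). Bbc3, encoding PUMA, had 79.9, 97.5 and 85.8 normalized counts after sham surgery and 141, 110 and 113 after MI in PKM2fl/fl hearts. There every MI heart was above every sham heart, where 30% of all genes were separated in that direction. The PKM2-/- values of Bbc3 were 69.1, 74.4 and 107 after sham surgery and 73, 69.2 and 120 after MI, and these groups overlapped. Its log2 difference did not pass the threshold in PKM2fl/fl (0.46, SE 0.231, limma adjusted p = 0.113) or PKM2-/- hearts (0.046, SE 0.231, limma adjusted p = 0.881). Single libraries decided some of these calls. Without PKM2fl/fl sham replicate 3 or MI replicate 3, Pmaip1 had a limma adjusted p of 0.0732 and 0.0736 in PKM2fl/fl hearts, and without sham replicate 2 or MI replicate 3, Bcl2l11 had 0.0637 and 0.0584. In PKM2-/- hearts, Bcl2l11 had limma adjusted p-values of 0.154 without sham replicate 3 and 0.0583, 0.0583 and 0.0543 without MI replicates 1, 2 and 3, and it had 0.0682 when only the sham and MI hearts of that genotype were fitted.

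The anti-apoptotic genes differed from each other. Bcl2a1b had 18.8, 61.6 and 10.8 normalized counts after sham surgery and 291, 277 and 466 after MI in PKM2fl/fl hearts. The PKM2-/- values were 25.7, 15.7 and 28.1 after sham surgery and 414, 375 and 395 after MI. The sham values rest on 32, 60 and 22 reads in PKM2fl/fl and 16, 12 and 26 in PKM2-/- hearts. The size of the log2 difference depends on these low counts. Every MI heart was above every sham heart, and the log2 difference was 3.78 (SE 0.449, limma adjusted p = 8.68e-06) in PKM2fl/fl and 4.07 (SE 0.449, limma adjusted p = 2.78e-06) in PKM2-/- hearts. Summed over the A1 genes, it was 3.63 (limma adjusted p = 1.05e-05) and 3.65 (limma adjusted p = 6.15e-06). Bcl2 had 732, 749 and 691 normalized counts after sham surgery and 1048, 985 and 1238 after MI in PKM2fl/fl hearts. The PKM2-/- hearts had 834, 773 and 573 after sham surgery and 825, 1112 and 1102 after MI, with MI replicate 1 just below the highest sham heart. The log2 difference of Bcl2 was 0.58 (SE 0.144, limma adjusted p = 0.00326) and 0.48 (SE 0.144, limma adjusted p = 0.00942), and without PKM2-/- sham replicate 3 the latter was 0.32 (limma adjusted p = 0.0576).

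Mcl1 and Bcl2l1, the most abundant members, did not rise in PKM2fl/fl hearts. Mcl1 had 4236, 3939 and 3551 normalized counts after sham surgery and 3175, 3365 and 4016 after MI in PKM2fl/fl hearts, which overlapped (log2 difference -0.16, SE 0.116, limma adjusted p = 0.284). For Mcl1 the PKM2-/- values were 3903, 4499 and 3435 after sham surgery and 5206, 4795 and 4762 after MI, all MI hearts above all sham hearts (log2 difference 0.33, SE 0.116, limma adjusted p = 0.0255). That call was lost without sham replicate 1 (limma adjusted p = 0.0586), sham replicate 3 (0.231 on the log2 scale, limma adjusted p = 0.124) or MI replicate 1 (limma adjusted p = 0.0809). The difference between the genotypes in the effect of MI on Mcl1 was 0.48 on the log2 scale (SE 0.164, 95% interval 0.132 to 0.831), with a limma adjusted p of 0.502. Bcl2l1 had 3392, 2545 and 3000 normalized counts after sham surgery and 2231, 1933 and 2246 after MI in PKM2fl/fl hearts, all MI hearts below all sham hearts, where 29% of all genes were separated in that direction. Its log2 difference was -0.47 (SE 0.222, limma adjusted p = 0.0897), and it passed the threshold when only these 6 hearts were fitted (limma adjusted p = 0.0222). For Bcl2l1 the PKM2-/- values were 4797, 6561 and 3128 after sham surgery and 4548, 3601 and 3480 after MI, which overlapped (log2 difference -0.26, SE 0.222, limma adjusted p = 0.33, and 0.25 with libraries scaled to total reads). Without sham replicate 3, the lowest PKM2-/- sham heart, it was -0.54 (limma adjusted p = 0.03). No member passed the threshold for a difference between the genotypes in the effect of MI by limma, edgeR or DESeq2, and 1 of 10 had an unadjusted p under 0.05 in limma, where 8.28% of all genes did.

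Of the members, 8 in PKM2fl/fl hearts had every MI heart above every sham heart, where 30% of all genes were separated in that direction, and 7 did in PKM2-/- hearts, where 31.7% were. With the libraries scaled to their total reads, 2 members rose in PKM2fl/fl hearts, Bcl2a1b and Pmaip1, where 11.4% of all genes rose, and 8 rose in PKM2-/- hearts, where 34.9% of all genes rose. All members called in either genotype kept a positive log2 difference under that scaling. When loci related to rRNA were removed before that scaling, no member called after MI lost its call in either genotype. These loci held 15.8% to 27.8% of reads in PKM2fl/fl sham hearts and 19.9% to 44.9% after MI. In PKM2-/- hearts they held 28.7% to 46.3% after sham surgery and 16.1% to 34.7% after MI.

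**Figure D3:**
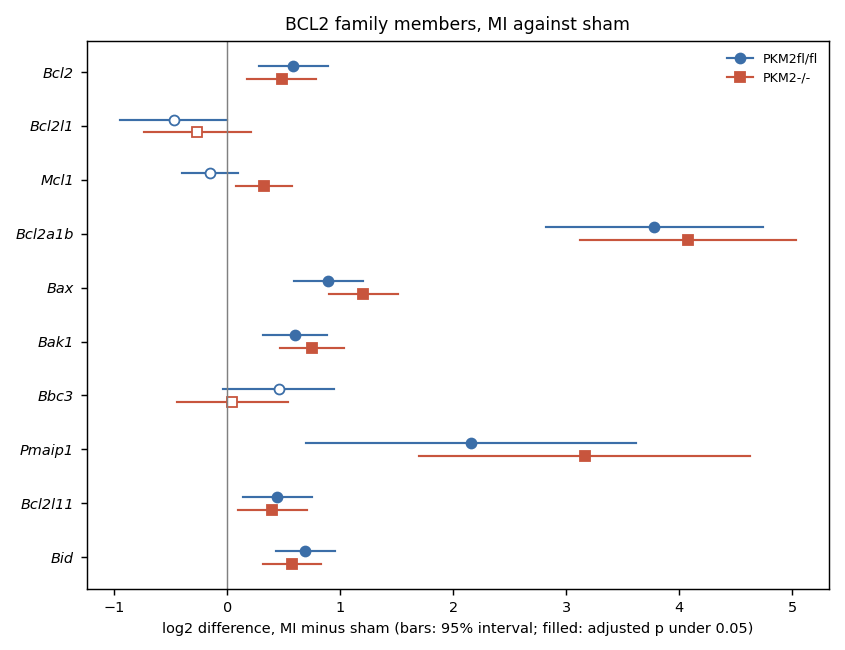
Log2 difference between MI and sham hearts (x axis) of each member (y axis) in PKM2fl/fl (circles) and PKM2-/- hearts (squares), with 95% intervals as bars and filled symbols for an adjusted p under 0.05 in limma's test. Bcl2a1b and Pmaip1 have the largest differences, from 2.16 to 4.07, the other members that rose lie between 0.33 and 1.21, and Bcl2l1 lies below 0 in both genotypes, though above 0 in PKM2-/- hearts when libraries are scaled to total reads (0.25).

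The ratio of Bax to Bcl2 normalized counts is taken within a library and so does not depend on the scaling between libraries. It was 0.315, 0.312 and 0.331 in PKM2fl/fl sham hearts and 0.44, 0.347 and 0.41 after MI. PKM2-/- hearts had ratios of 0.324, 0.27 and 0.412 after sham surgery and 0.687, 0.455 and 0.522 after MI. All MI hearts were above all sham hearts of their genotype, and all PKM2-/- were above all PKM2fl/fl hearts after MI. The baseline hearts had 0.251 and 0.232 in PKM2fl/fl and 0.277 and 0.325 in PKM2-/- mice. These ratios were chosen after the values had been seen and were not tested. Ratios of Bax to the other anti-apoptotic members were not taken, nor was the share of other gene pairs that separate in this way. After MI, Bax was 1.27-fold higher in PKM2-/- than in PKM2fl/fl hearts. The more abundant Bcl2l1 and Mcl1 were 1.8-fold and 1.4-fold higher, and Bcl2 was 0.925-fold, so the ratio to Bcl2 does not stand for the family.

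The comparison of genotypes asks whether the loss of PKM2 went with another level of these regulators. No member passed the limma threshold at baseline, where 0.00972% of all genes passed, and 0 of 10 had an unadjusted p under 0.05 (3.64% of all genes did). By edgeR and DESeq2, too, 0 members passed at baseline. The loci related to rRNA held 17.3% and 22.1% of reads in PKM2fl/fl and 39.9% and 44% in PKM2-/- baseline hearts. Their part in the baseline comparison was not tested. The log2 differences at baseline ran from -0.73 for Bcl2a1b (95% interval -1.9 to 0.443) to 0.15 for Bcl2l11 (95% interval -0.227 to 0.519), so with 2 hearts per group a change of 2-fold was outside the interval of some members, such as Mcl1 (-0.263 to 0.342) and Bak1 (-0.31 to 0.38), and inside that of others, such as Pmaip1 (-1.87 to 1.72). After sham surgery 0 members passed (0.00972% of all genes), and edgeR and DESeq2 also called 0. There Bcl2l1 and Bid had an unadjusted p under 0.05 (9.95% of all genes did), with log2 differences of 0.64 (SE 0.222, limma adjusted p = 0.312) and 0.28 (SE 0.122, limma adjusted p = 0.462, and -0.044 with libraries scaled to total reads).

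After MI, 0 of 10 members passed the limma threshold, where 0.967% of all genes did, and 4 had an unadjusted p under 0.05 (17% of all genes). Bcl2l1 was 1.8-fold higher in PKM2-/- hearts, with 4548, 3601 and 3480 normalized counts against 2231, 1933 and 2246. The groups stood far apart, and the log2 difference was 0.85 (SE 0.222, 95% interval 0.379 to 1.32, limma adjusted p = 0.0715). Mcl1 was 1.4-fold higher, with 5206, 4795 and 4762 against 3175, 3365 and 4016 normalized counts, again without overlap (log2 difference 0.49, SE 0.116, 95% interval 0.243 to 0.737, limma adjusted p = 0.0571). DESeq2 on the recovered reads called both (0.86, DESeq2 adjusted p = 0.00808 for Bcl2l1, and 0.48, DESeq2 adjusted p = 0.00544 for Mcl1), and edgeR called 0 members. DESeq2 called 5.64% of the 18329 genes with an adjusted p, against the 0.967% called by limma. Without PKM2fl/fl MI replicate 3, the heart with the lowest cardiomyocyte sum of its group, limma called both as well. The log2 differences were then 0.89 for Bcl2l1 (limma adjusted p = 0.0325) and 0.59 for Mcl1 (limma adjusted p = 0.00391), and that fit called 11.1% of all genes. Over the 6 fits with 1 heart left out, the limma adjusted p ran from 0.0325 to 0.258 for Bcl2l1 and from 0.00391 to 0.201 for Mcl1. Groups of 3 hearts that did not overlap were seen for 3 members higher in PKM2-/- hearts, Bcl2l1, Mcl1 and Bid, where 10.7% of all genes were separated in that direction. Bax was higher by 0.35 (SE 0.142, limma adjusted p = 0.229) and Bbc3 lower, with a log2 difference of -0.50 (SE 0.231, limma adjusted p = 0.282), and both groups overlapped. The other 6 members had log2 differences from -0.11 for Bcl2 to 0.54 for Pmaip1 with intervals that included 0. In the neutrophil sums given above, PKM2-/- hearts after MI also stood above PKM2fl/fl hearts, and their cardiomyocyte sums lay below those of 2 of 3 PKM2fl/fl hearts.

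**Figure D4:**
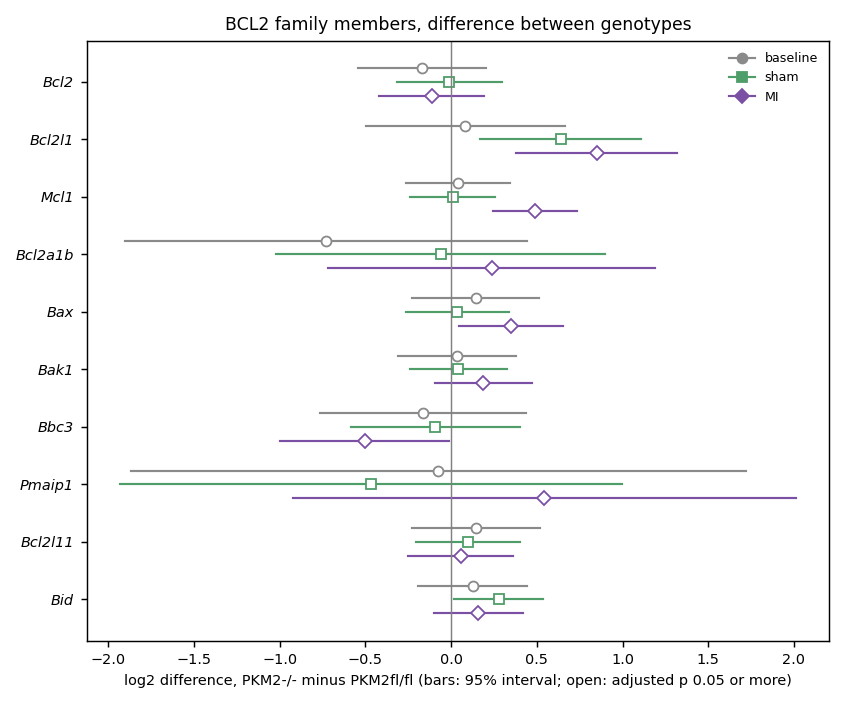
Log2 difference between PKM2-/- and PKM2fl/fl hearts (x axis) of each member (y axis) at baseline (circles), after sham surgery (squares) and after MI (diamonds), with 95% intervals as bars and open symbols for an adjusted p of 0.05 or more in limma's test. All symbols are open; the intervals of Bcl2l1 and Bid after sham surgery and of Bcl2l1, Mcl1 and Bax after MI lie above 0, and that of Bbc3 after MI lies below 0.

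Sham surgery against baseline asks what the operation alone went with. In PKM2fl/fl hearts 0 members passed the limma threshold (0.19% of all genes), 1 had an unadjusted p under 0.05 (8.81% of all genes), and edgeR and DESeq2 called 0. In PKM2-/- hearts 1 member, Bcl2l1, rose (3.48% of all genes rose). It had 2064 and 2164 normalized counts at baseline and 4797, 6561 and 3128 after sham surgery. All sham hearts were above both baseline hearts, where 18.4% of all genes were separated in that direction, and the sham hearts spread widely. The log2 difference was 1.13 (SE 0.248, limma adjusted p = 0.0167), and edgeR and DESeq2 also called it. In the same comparison 5 of 7 neutrophil markers, 3 of 8 macrophage and monocyte markers, 4 of 6 cycling markers, 2 of 6 fibroblast markers and 1 of 6 endothelial markers rose, 0 of 8 cardiomyocyte markers and 0 of 3 lymphocyte markers passed, and their part in the difference was not tested. Leaving out either baseline heart gave limma adjusted p-values of 0.106 and 0.0933, and leaving out sham replicate 1 or 2 gave 0.0528 for each. In PKM2fl/fl hearts Bcl2l1 had 1578 and 2523 counts at baseline and 2545 to 3392 after sham surgery (log2 difference 0.57, SE 0.248, limma adjusted p = 0.517), and the difference between the genotypes was not tested. The comparisons of PKM2-/- sham hearts with baseline and with MI hearts share the same 3 sham hearts.

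In PKM2-/- hearts Bcl2a1b had 9.32 and 7.33 counts at baseline against 25.7, 15.7 and 28.1 after sham surgery (log2 difference 1.34, SE 0.502, limma adjusted p = 0.148). Bcl2l11 had 689 and 614 against 532, 649 and 389 (log2 difference -0.34, SE 0.16, limma adjusted p = 0.261). At baseline in PKM2fl/fl hearts the other members had 882 and 863 counts of Bcl2, 3451 and 3578 of Mcl1, 17.3 and 11.9 of Bcl2a1b, 221 and 200 of Bax and 447 and 404 of Bak1. The BH3-only genes had 137 and 112 counts of Bbc3, 14.1 and 3.98 of Pmaip1, 588 and 587 of Bcl2l11 and 182 and 167 of Bid. The PKM2-/- values were 807 and 744 for Bcl2, 3404 and 3830 for Mcl1, 224 and 242 for Bax, 434 and 438 for Bak1, 97.9 and 125 for Bbc3, 4.66 and 11 for Pmaip1 and 194 and 187 for Bid.

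The table holds 16 further genes of the family, of which 12 were tested. After MI, 2 rose and 5 fell in PKM2fl/fl hearts and 5 rose and 5 fell in PKM2-/- hearts, where 50.1% and 56.8% of all genes passed in either direction. The effector-like gene Bok rose in both, from 69.8 to 89.2 normalized counts after sham surgery to 176 to 231 after MI in PKM2fl/fl hearts (log2 difference 1.42, SE 0.259, limma adjusted p = 0.000324) and with a log2 difference of 1.60 in PKM2-/- hearts (SE 0.259, limma adjusted p = 8.41e-05). Bcl2l2, which encodes the anti-apoptotic protein BCL-W, fell by 0.67 and 0.53 on the log2 scale. The BH3-only gene Hrk fell in both genotypes, from 15.9, 20.5 and 26.5 normalized counts after sham surgery to 1.55, 2.14 and 1.83 after MI in PKM2fl/fl hearts. These MI values rest on 1 or 2 reads each, so the fitted log2 differences of -2.93 in PKM2fl/fl (limma adjusted p = 0.00293) and -2.71 in PKM2-/- hearts (limma adjusted p = 0.00415) depend on the pseudocount. Bcl2l13 and Bnip3, whose products act in mitophagy at the outer mitochondrial membrane, fell with log2 differences of -0.73 and -0.91 in PKM2fl/fl and of -1.08 and -1.04 in PKM2-/- hearts. The BH3-only gene Bik fell with differences of -0.62 (limma adjusted p = 0.0293) and -0.69 (limma adjusted p = 0.0148). For Bik the call was lost in PKM2fl/fl hearts without sham replicate 2, MI replicate 2 or MI replicate 3 (limma adjusted p = 0.111, 0.108 and 0.0797) and in PKM2-/- hearts without sham replicate 2 or MI replicate 1 (limma adjusted p = 0.059 and 0.0843). Bik was also the 1 gene of these 12 that passed between sham and baseline hearts, in PKM2-/- mice (log2 difference -0.94, limma adjusted p = 0.041).

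Bad, which encodes a BH3-only protein controlled by growth factor signalling, Bmf, a BH3-only gene, and Bcl2l15 rose in PKM2-/- hearts after MI, with log2 differences of 0.34, 0.98 and 2.35, and did not pass in PKM2fl/fl hearts, with 0.23, 0.30 and 0.59. Without PKM2-/- MI replicate 2 the call of Bad was lost (limma adjusted p = 0.0603). The difference between the genotypes in the effect of MI did not pass the threshold for Bad (limma adjusted p = 0.873), Bmf (0.68 on the log2 scale, limma adjusted p = 0.516) or Bcl2l15 (1.76, limma adjusted p = 0.572). Bcl2l15 was the 1 family gene that limma called between the genotypes in the fit of all libraries, with 24.7, 8.57 and 20.1 normalized counts in PKM2fl/fl and 141, 76.2 and 83.7 in PKM2-/- hearts after MI. All PKM2-/- hearts were above all PKM2fl/fl hearts (log2 difference 2.49, SE 0.533, 95% interval 1.36 to 3.63, limma adjusted p = 0.0454). This call was lost without any single one of 5 of the 6 hearts, with limma adjusted p-values of 0.0758 and 0.178 without PKM2fl/fl replicates 1 and 2 and of 0.14, 0.0806 and 0.105 without PKM2-/- replicates 1, 2 and 3. It was also lost with a pseudocount of 0.1 (limma adjusted p = 0.0563), no filter on low values (0.0693) or only these groups in the fit (0.155).

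The other A1 genes had fewer counts than Bcl2a1b after MI, though the split of reads between these genes is uncertain. Bcl2a1d had 5.88, 10.3 and 2.94 normalized counts after sham surgery and 55.7, 4.29 and 45.7 after MI in PKM2fl/fl hearts, and 6.43, 5.22 and 8.63 after sham surgery and 36.5, 59.1 and 43.3 after MI in PKM2-/- hearts. PKM2fl/fl MI replicate 2 lay among the sham hearts, while in PKM2-/- hearts the groups did not overlap. Bcl2a1d rose by 1.84 on the log2 scale in PKM2fl/fl (limma adjusted p = 0.0464) and by 2.60 in PKM2-/- hearts (limma adjusted p = 0.00646). The PKM2fl/fl call was lost without sham replicate 1 or 3 or MI replicate 1 or 3 (limma adjusted p = 0.0895, 0.161, 0.206 and 0.183), with a pseudocount of 0.1 (0.058), without the filter on low values (0.0916) and with only these groups in the fit (0.128). Bcl2a1a was under the minimum level and not tested, with 18.6, 9.65 and 12.8 normalized counts in PKM2fl/fl and 25.9, 19.1 and 34.6 in PKM2-/- hearts after MI. Bcl2a1c had 0 reads in all 16 libraries, and Bcl2l10 and Bcl2l14 were also under the minimum.

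**Figure D5:**
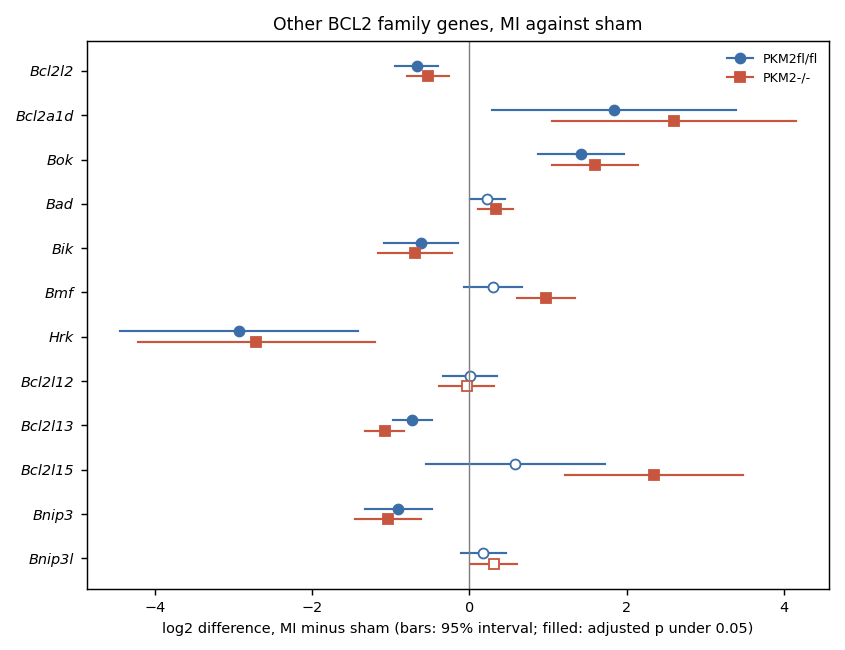
Log2 difference between MI and sham hearts (x axis) of the 12 tested family genes outside the 10 members (y axis) in PKM2fl/fl (circles) and PKM2-/- hearts (squares), with 95% intervals as bars and filled symbols for an adjusted p under 0.05 in limma's test. Bcl2l2, Bik, Hrk, Bcl2l13 and Bnip3 lie below 0 and Bcl2a1d and Bok above 0 with filled symbols in both genotypes.

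The members act between signals that reach the mitochondrion and caspases that carry out cell death, and the listed genes of these steps were counted in the same fit, in which 50.1% of all genes passed after MI in PKM2fl/fl hearts (24.8% higher) and 56.8% in PKM2-/- hearts (28.7% higher). Of 8 genes of the death receptor input, 4 rose and 1 fell after MI in PKM2fl/fl hearts and 5 rose and 1 fell in PKM2-/- hearts, with median log2 differences of 0.68 and 1.01. Casp8, the caspase that cleaves BID, rose by 1.52 (SE 0.143, limma adjusted p = 1.11e-06) and 1.36 (SE 0.143, limma adjusted p = 1.91e-06) on the log2 scale, and the receptor Tnfrsf1a by 0.84 and 0.99, while the death receptor Fas, named after its values were seen, fell with differences of -0.94 and -1.01. Of 10 genes of p53 and its targets, 5 rose and 1 fell in each genotype (median 0.55 and 0.51), a share of genes passing that is near that of all genes. Trp53 rose by 1.11 (limma adjusted p = 2.67e-06) and 1.01 (limma adjusted p = 3.83e-06), and Ccng1 fell, with differences of -1.20 and -1.52. The targets Mdm2 and Cdkn1a, also named after their values were seen, did not pass in either genotype, with log2 differences of 0.23 and 0.10 in PKM2fl/fl and 0.24 and -0.11 in PKM2-/- hearts. Apart from Trp53, this list was drawn up from p53 targets, and p53 activity was not tested. Sesn2, likewise named after its values were seen, had 90.5, 119 and 102 normalized counts after sham surgery and 235, 222 and 320 after MI in PKM2fl/fl hearts. In PKM2-/- hearts it had 114, 95.3 and 106 after sham surgery and 205, 280 and 328 after MI.

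Downstream of the mitochondrion, 4 of 9 genes of the apoptosome and caspases rose and 3 fell in PKM2fl/fl hearts, and 6 rose and 3 fell in PKM2-/- hearts (median 0.23 and 0.38). Cycs, encoding the cytochrome c that BAX and BAK pores release, fell, with log2 differences of -1.54 (limma adjusted p = 2.54e-06) and -1.27 (limma adjusted p = 8.42e-06), and Apaf1, which binds it, rose by 1.42 and 1.25. Of the 6 IAP proteins and their antagonists, 4 rose and 1 fell in each genotype (median 0.43 and 0.48). Birc5, an IAP protein used in cell division, rose by 3.52 on the log2 scale in both genotypes, beside the cycling markers given above, and Diablo, a mitochondrial antagonist of IAP proteins, fell by 0.78 in both. All 6 outer membrane partners and mitochondrial death proteins fell in both genotypes (median -0.93 in each), Vdac1, a channel of the outer membrane, with differences of -1.28 and -1.34. Cardiomyocyte marker sums were lower in the same hearts, and their part in these falls was not tested. In none of these lists did a gene pass the limma threshold between genotypes at baseline, after sham surgery or after MI.

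The genes whose log2 values followed each member most closely over the 16 libraries are a description, since most of these values differ between MI and other hearts and the libraries share their depth and scaling. Bcl2a1b lay closest to Cyth4, Cd300c2 and Arhgap11a, each with a Pearson r of 0.99. Bax lay closest to the glycolytic gene Eno1 (r = 0.987), Sdc1 (0.985) and Stxbp2 (0.983), Bak1 to Gm50253 (0.986), Clta (0.979) and Mxd3 (0.976), and Bid to Pcdhgc5 (0.982), Pcdhgc4 (0.98) and Pcdhga12 (0.971), which share exons with each other. Pmaip1 followed Map3k3 (0.966), Kif4 (0.96) and Hist1h4n (0.955), and Bcl2 followed Mecom (0.956), Jazf1 (0.946) and Maml2 (0.934). Bcl2l1 followed Aff1 (0.969), Eva1c (0.958) and Ddit4 (0.956), and among the closest to Mcl1 were Klf13 (0.887) and Rnf169 (0.879). Bcl2l11, with Tmed8 (0.895), Gm10561 (0.867) and B630019A10Rik (0.861), and Bbc3, with Gm50115 (0.854), Gm44207 (0.78) and Gm11211 (0.779), had the loosest neighbours.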

How the data were processed

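Total RNA from pulverized left ventricles was depleted of rRNA and sequenced as paired ends; per the study's methods, the authors used PRINSEQ for trimming, HISAT2 for alignment (mm10) and featureCounts for gene counts. The authors deposited normalized signal, gene counts divided by DESeq2 size factors; strand use, treatment of reads that map to several places, and versions are not given in the sources used here. Columns with the authors' own baseline fold changes, errors and p-values were not used. Each library was a separate mouse. All values were whole numbers of reads within 0.1 read once divided by the value of 1 read, which set depth at 20623769 to 71855101 reads. Intervals over libraries cover the spread between hearts. If reads are independent, a count of 0 allows up to 3 reads, which correspond to 1.47 to 5.5 normalized counts. Many low counts were even, such as those of Pmaip1 in sham hearts (26, 24 and 16 in PKM2fl/fl and 12, 16 and 2 in PKM2-/- mice). Whether both mates of a pair were counted is not given in the sources used here.

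From these values, log2(value + 1) of genes with a mean of at least 10 was tested with limma-trend 3.58.1 in R 4.3.3, with all 16 libraries in 6 groups and Benjamini-Hochberg adjustment over 20576 genes. Fold changes are on that scale, which understates changes of low genes. Exact permutation tests of 3 hearts against 3 cannot go below p = 0.1, or 0.33 for 2 against 2, and were not used. Alternatives were edgeR 4.0.16 (TMM, quasi-likelihood) and DESeq2 1.42.0 on the recovered reads, no filter, a pseudocount of 0.1, scaling to total reads (also after removing loci related to rRNA), only the groups compared, a replicate block, each library left out and the sum of the A1 genes. On simulated counts for PKM2-/- against PKM2fl/fl hearts after MI, limma recovered 70% of genes changed by 1 and 89% of those changed by 2 on the log2 scale, among 20593 genes. The spread of the simulated counts was assumed and not taken from these hearts, so these shares need not hold for them. The members, lists and tests were chosen with earlier results of these data known. Named genes were all members, every other BCL2 family gene, and at most 3 genes of each pathway or marker list with the smallest p for MI against sham in PKM2fl/fl hearts, unless stated. Some genes that this rule or the search for neighbours would name are not reported here. Figures were drawn with matplotlib 3.10.9 in Python 3.11.15.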

Additional observations from a re-analysis of the deposited data

How the results depend on the processing

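The counts of members called after MI were 7 in PKM2fl/fl and 8 in PKM2-/- hearts by limma, edgeR and DESeq2, and ran from 5 to 7 and from 6 to 8 with each library left out. Scaling to total reads gave 2 members in PKM2fl/fl hearts and turned the log2 difference of Bcl2l1 after MI in PKM2-/- hearts to 0.25 (0.089 with rRNA-related loci removed) and that of Bid between genotypes after sham surgery to -0.044. That scaling moved the median log2 difference of all genes by -0.17 and 0.51 for MI in PKM2fl/fl and PKM2-/- hearts, by -0.59, -0.32 and 0.36 between genotypes at baseline, after sham surgery and after MI, and by 0.68 for the interaction. With rRNA-related loci removed the shifts were 0.13, 0.36, -0.12, -0.058, 0.16 and 0.22, and no member called after MI lost its call. Of the genes called after MI, 49.5% were higher in PKM2fl/fl and 50.5% in PKM2-/- hearts, against 39.6% and 79.4% with total count scaling and 61.3% and 72.3% with those loci removed. Between genotypes after MI the share was 40.7% against 83.2% and 85.2%, and between sham and baseline PKM2-/- hearts 67.7% against 94.2% and 82.8%. The cause of these shifts was not tested. Between genotypes after MI, DESeq2 called 2 members where limma called 0, and leaving out libraries gave 0 to 2, with 2 without PKM2fl/fl MI replicate 3. The 1 member called between sham and baseline PKM2-/- hearts was 0 to 1 with libraries left out. The log2 difference of Bbc3 after MI in PKM2-/- hearts ran from -0.20 to 0.24. Of 223 values of called members under the alternatives, 201 kept the call, 22 lost it and 0 changed sign, and of 916 values of members not called, 7 passed and 68 changed sign. Replicate numbers paired no animals, and same-numbered libraries correlated by -0.196 to 0.126; with the replicate block, 7 and 8 members were called after MI, 0 between genotypes in each setting and 1 between sham and baseline in PKM2-/- hearts. Over all genes, 10299 were called after MI in PKM2fl/fl hearts (6017 with total count scaling). Between genotypes at baseline, 2 were called by limma, 1 by edgeR, 17 by DESeq2, 44 with total count scaling, 9 with a pseudocount of 0.1, 48 with only these groups, 1 with the block and 0 to 40 with libraries left out. After sham surgery 2 were called, against 273 by DESeq2, 114 with total count scaling, 0 with rRNA-related loci removed, 0 without a filter, 9 with only these groups, 0 with the block and 0 to 90 with libraries left out. After MI 199 were called, against 1033 by DESeq2, 119 with total count scaling, 6 with only these groups, 75 with the block and 11 to 2279 with libraries left out. Between sham and baseline, 39 were called in PKM2fl/fl hearts (356 by DESeq2, 94 with total count scaling, 1 with only these groups, 24 with the block, 7 to 282 with libraries left out) and 1058 in PKM2-/- hearts (588 with total count scaling, 316 to 979 with libraries left out). For the interaction 0 were called, against 52 by DESeq2, 52 with total count scaling and 0 to 486 with libraries left out. Low counts limited Pmaip1, Hrk and the A1 genes, for which 3 reads equal 1.47 to 5.5 normalized counts. For Bcl2a1b this concerned the baseline and sham hearts.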
